A study of Rattus norvegicus with 13 samples.

Results

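Dorsal skin-derived precursors (SKPs) were compared with mesenchymal stromal cells (MSCs), and the genes that set dorsal SKPs apart from MSCs in a way that facial and ventral SKPs did not were then picked out. The comparison rested on the arrays that the labels name as dorsal SKPs (3 arrays) or MSCs (4 arrays), 7 of the 13 arrays of the series. The 3 arrays of facial and 3 of ventral SKPs served as the reference for what is dorsal. All cells came from adult Sprague Dawley rats, carried no genetic change or treatment that the labels name, had been passaged 2 times, and each array held a separate isolate. Dorsal and ventral SKPs came from skin of the trunk. No label names the tissue of the MSCs or the culture media, so a difference between cell types and a difference between media cannot be told apart in the comparison with MSCs. RNA was hybridised to Affymetrix Rat Gene 1.0 ST arrays, and each value below is a log2 RMA expression level or a difference between such levels.

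SKPs are precursors that grow as floating spheres from dissociated dermis and can give rise to neural and mesenchymal cells, and they are thought to arise in the dermal papilla and dermal sheath of hair follicles. The dermis has several embryonic sources: on the back it derives from the dermomyotome of the somites, on the belly from lateral plate mesoderm and on the face from the neural crest. MSCs are adherent stromal cells that can form bone, cartilage and fat. Cultures can keep some of the transcription factors of their region of origin.

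The dorsal arrays were checked first against markers of the label. Sox2, a stem cell factor found in SKPs, stood at 7.35, 7.20 and 6.63 on dorsal arrays 1 to 3 and at 5.70, 5.19, 4.98 and 5.21 on MSC arrays 1 to 4 (difference 1.79, SE 0.31, limma adjusted p = 0.00203). Twist1, a mesenchymal and neural crest factor (1.84, SE 0.37, adjusted p = 0.00487), and the retinoic acid-binding protein Crabp1 (4.46, SE 0.85, adjusted p = 0.00374, and 5.63 without dorsal array 3) were higher too. The intermediate filament gene Nes, also used as an SKP marker, was not called (-1.24, SE 0.52, adjusted p = 0.135), with dorsal values of 4.33, 5.03 and 3.57. Nor were the crest factors Snai2 (-1.43, adjusted p = 0.0534) and Pax3 (-0.11, adjusted p = 0.847), the neurotrophin receptor Ngfr (0.69, adjusted p = 0.106), or Vcan and Fn1. Of 19 stromal surface markers, 6 were called above and 4 below MSCs in facial SKPs, and 2 and 1 in ventral SKPs. In dorsal SKPs 2 were higher and 4 lower, against 8.77% and 7.76% of all genes. The higher ones were Cd9 (1.19, adjusted p = 0.0389) and Alcam (1.03, adjusted p = 0.0312), and 0 were higher by limma without dorsal array 1 or without MSC array 4. The lower ones were the adhesion molecules Ncam1 (-1.80, adjusted p = 0.00484) and Icam1 (-1.08, adjusted p = 0.00194), the peptidase Anpep (-1.85, adjusted p = 0.033) and the integrin chain Itgb1 (-0.64, adjusted p = 0.0164). Cd44, Thy1, Nt5e, Eng, Pdgfrb and Vcam1 were among those not called.

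Markers of other cells were read next. A background level of 3.49 was set from olfactory and vomeronasal genes, which these cells should not use (their 90th percentile). The endothelial markers Pecam1, Cdh5, Kdr and Tek lay near it in dorsal SKPs, with means of 3.53, 3.92, 3.57 and 3.26. The mean of a list of 17 endothelial markers was higher, at 4.53, 4.665 and 4.34 on dorsal arrays 1 to 3. It ran from 4.46 to 4.80 on the MSC arrays. Egfl7, a member of that list, had a dorsal mean of 5.76 and was below MSCs (-1.14, limma adjusted p = 0.00648). The epithelial genes Epcam (2.20), Cdh1 (3.87) and Krt14 (4.52) and the pigment enzyme Tyr (2.30) did not differ from MSCs by the test. Other pigment cell markers were mixed. Of 9 melanocyte markers, 3 (Kit, Mitf and Mlana) were higher than in MSCs, with values given further on, against 8.77% of all genes. The median difference of the list was 0.095, and 3 of its 9 members lay below background on every dorsal and MSC array. Leukocyte markers varied by isolate. The mean of 28 such markers was 7.05 on dorsal array 1, 5.197 on dorsal array 2 and 4.37 on dorsal array 3, against 4.22 to 4.74 on the MSC arrays, 6.31 to 9.90 on the facial and 5.37 to 5.65 on the ventral arrays. Ptprc, the pan-leukocyte phosphatase, stood at 7.03 on dorsal array 1 and at 3.83 and 3.59 on the others. The part of melanocyte RNA in the gene results below was not tested, nor was that of leukocyte RNA other than by the covariate named among the alternatives.

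Dorsal array 3 stood apart from the other dorsal arrays. Between it and dorsal arrays 1 and 2, 9.55% and 7.67% of genes differed by over 2-fold, against 2.07% between arrays 1 and 2. Cell cycle genes had a mean of 5.14 on it (7.12 and 6.68 on arrays 1 and 2), fibrillar and dermal matrix genes 8.32 (10.04 and 10.02), unfolded protein and amino acid response genes 10.04 (8.25 and 8.43) and hypoxia and glycolysis genes 9.81 (8.83 and 8.84).

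**Figure D1:**
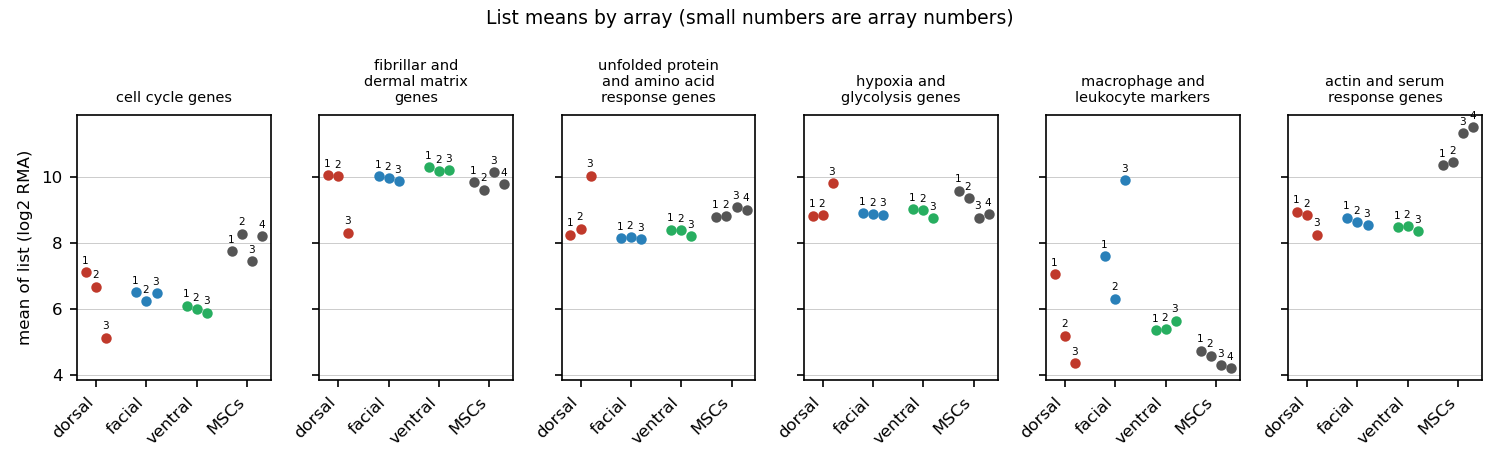
Mean log2 RMA level of 6 gene lists on each of the 13 arrays (y axis), by group (x axis), with array numbers beside the points. Dorsal array 3 lies below the other dorsal arrays for cell cycle genes (5.14) and matrix genes (8.32) and above them for the unfolded protein and hypoxia lists, while leukocyte markers are highest on dorsal array 1 (7.05) among dorsal arrays and on facial array 3 (9.90) among all.

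Of 14506 genes tested, 2397 (16.5%) were called between dorsal SKPs and MSCs at a Benjamini-Hochberg adjusted p under 0.05. Dorsal SKPs were higher for 1272 genes (8.77%) and lower for 1125 (7.76%). With an additional minimum of 2-fold these counts were 557 and 552. Without dorsal array 3, 1204 genes were called higher and 1041 lower, of which 983 and 871 were also called with it. The same test against the other SKP regions called far fewer genes: 182 (1.25%) between dorsal and facial SKPs, with 0.462% of genes higher and 0.793% lower in dorsal SKPs, and 886 (6.11%) between dorsal and ventral SKPs, with 2.35% higher and 3.76% lower. Facial SKPs were called above MSCs for 9.47% of genes and below them for 9.58%, and ventral SKPs for 13% (1891 genes) and 11.4%. Of the 2397 genes called against MSCs, 41 also differed from both facial and ventral SKPs, 57 from facial SKPs alone and 254 from ventral SKPs alone. The other 2045 passed neither regional test, which does not show that the regions are alike for them.

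What dorsal SKPs showed beyond the other regions was read from the regional differences themselves, because each comparison with MSCs uses the same 4 MSC arrays. A gene counted as highest in dorsal SKPs when dorsal minus MSC, dorsal minus facial and dorsal minus ventral were all called with a positive difference, and as lowest when all were called with a negative one. In all, 19 genes (0.131% of those tested) were highest and 14 (0.0965%) were lowest. For each of these 33 genes the 3 dorsal arrays did not overlap with the other 10, a pattern that 208 genes (1.43%) showed upward and 123 (0.848%) downward among all genes. Without dorsal array 3, 24 genes were highest, 9 of them among the 19, and 9 were lowest, 6 of them among the 14. Those in common were Zic1, Cdh7, Adgrl4, Mst1, Fbxo32, Ccdc134, Syt13, Capn12 and Slc16a13 among the highest and Mab21l1, Meox2, Fzd6, Frmd6, Atp10a and Homer1 among the lowest. They were not equally firm. Of the 23 alternative settings described further on, Syt13 met its rule in 7 and Atp10a in 10, and the others in 16 to 23. Omitting dorsal array 2 raised the count of highest genes to 42. It dropped to 12 when facial array 2 was omitted, to 8 for facial array 3 and to 7 for ventral array 1 or 3. The count of lowest genes became 8 when facial array 2 was omitted, 5 for facial array 3 and 9 for ventral array 1 or 3.

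**Figure D2:**
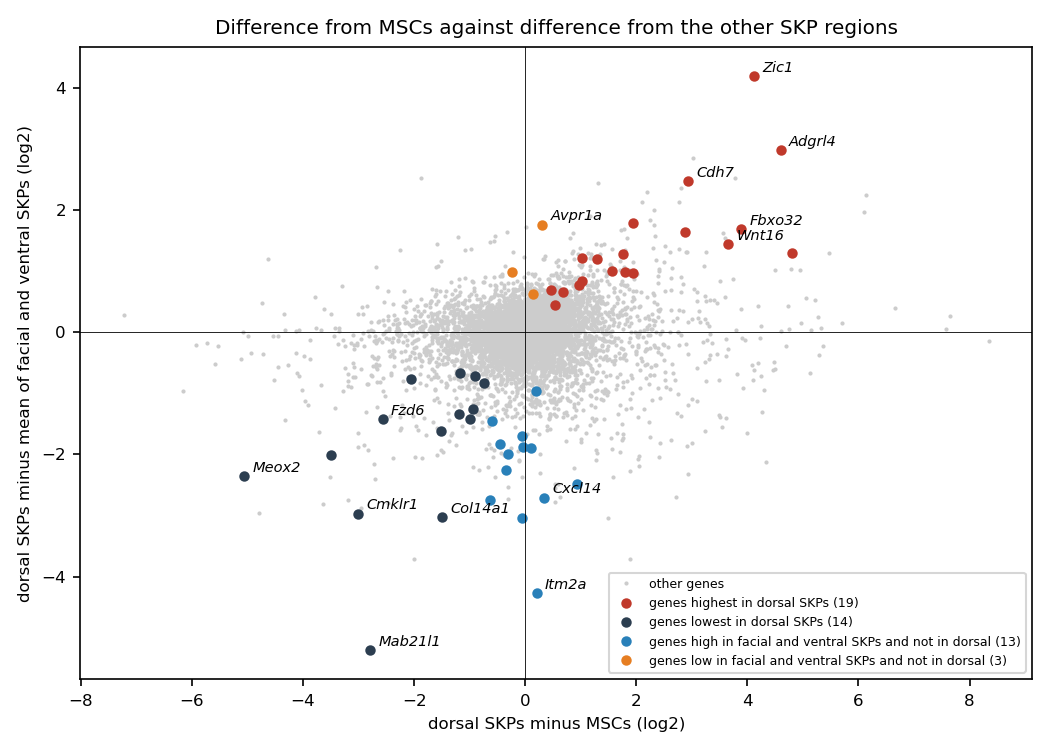
Each point is a gene, with dorsal SKPs minus MSCs on the x axis and dorsal SKPs minus the mean of the facial and ventral difference on the y axis, both log2. The 19 genes highest in dorsal SKPs lie to the upper right with Zic1 at the top, and the 14 lowest to the lower left with Mab21l1 at the bottom. The 13 genes called above MSCs in facial and ventral SKPs and not in dorsal SKPs lie nearer 0 on the x axis and below 0 on the y axis. Map2 lies furthest to the right of them (0.935).

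Among the genes highest in dorsal SKPs, Zic1 had the largest regional difference. It encodes a zinc finger transcription factor of the dorsal neural tube, neural crest and dorsal somite. Zic1 stood at 7.53, 8.25 and 8.53 on dorsal arrays 1 to 3 and at 3.99, 3.94, 4.10 and 3.92 on MSC arrays 1 to 4. On the 6 facial and ventral arrays it ran from 3.60 through a median of 4.00 to 4.14. The 3 dorsal arrays were thus high and the other 10 lay within a narrow low band. Dorsal minus MSC was 4.12 (SE 0.21, adjusted p = 4.03e-07), a 17.4-fold difference, dorsal minus facial 4.20 (adjusted p = 3.88e-06) and dorsal minus ventral 4.19 (adjusted p = 2.65e-06). Facial (-0.08, adjusted p = 0.841) and ventral SKPs (-0.07, adjusted p = 0.844) were not called against MSCs. Zic4, which lies next to Zic1 on chromosome 8 in the RefSeq annotation with no other coding gene between, was also among the 19, with 3.77, 4.45 and 4.11 on the dorsal arrays against 3.62, 3.62, 3.73 and 3.62 on the MSC arrays (difference 0.46, SE 0.13, adjusted p = 0.0345) and a facial mean below background. Zic4 was near the threshold, with an adjusted p of 0.0723 once dorsal array 3 was left out.

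Cell surface and adhesion genes came next. Cdh7, a cadherin of migrating neural crest in the chick, stood at 5.26, 5.72 and 5.86 on the dorsal arrays. All 4 MSC values lay below background (2.82, 2.47, 2.60 and 2.85), and the facial and ventral arrays ran from 2.67 through 3.16 to 3.58, so Cdh7 rose above background in dorsal SKPs with a difference from MSCs whose size is not resolved (2.93, SE 0.22, adjusted p = 4.98e-06). Against facial SKPs the difference was 2.36 (adjusted p = 0.000329) and against ventral SKPs 2.59 (adjusted p = 0.000108). Adgrl4, an adhesion G protein-coupled receptor best known from endothelium, stood at 7.80, 7.38 and 8.29 on the dorsal, 4.12, 3.40 and 3.49 on the facial, 5.87, 6.10 and 6.08 on the ventral and 3.43, 3.62, 2.78 and 3.05 on the MSC arrays. Dorsal arrays were highest and ventral arrays lay between them and the rest. The difference from MSCs, whose mean was below background so that its size is not resolved, was 4.60 (SE 0.25, adjusted p = 6.1e-07), that from facial SKPs 4.15 (adjusted p = 1.09e-05) and that from ventral SKPs 1.81 (adjusted p = 0.00335). In the same dorsal arrays the endothelial markers Pecam1, Cdh5, Kdr and Tek had means of 3.26 to 3.92, and 0 of 17 endothelial markers were called higher than in MSCs by limma (1 without dorsal array 3). On the ventral arrays, where Adgrl4 was intermediate, Pecam1 (6.19), Kdr (5.02) and Cdh5 (4.84) were called above MSCs with 8 of 17 markers in all, and the part of endothelial RNA in the ventral level was not tested.

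Signalling genes formed another group of the 19. The Wnt ligand Wnt16 stood at 8.19, 8.36 and 8.62 on the dorsal arrays, at 6.46 through 6.76 to 7.61 on the facial and ventral arrays and at 4.99, 4.47, 4.79 and 4.68 on the MSC arrays (dorsal minus MSC 3.66, SE 0.26, adjusted p = 3.63e-06). Tnfrsf19, a TNF receptor family member that is also a target of Wnt signalling, stood at 7.45, 7.26 and 7.88 on the dorsal arrays against 5.50 through 5.86 to 6.32 and 4.36, 4.50, 5.15 and 4.61 (2.88, SE 0.25, adjusted p = 1.48e-05). For both genes facial and ventral SKPs were also called above MSCs (2.20 and 2.24 for Wnt16, 1.37 and 1.11 for Tnfrsf19), so dorsal SKPs stood a step above a rise that all regions had. Neither gene met all 3 tests without dorsal array 3. The tachykinin receptor gene Tacr1 (1.30, SE 0.22, adjusted p = 0.00191) and Mst1, which encodes macrophage-stimulating protein (1.94, SE 0.29, adjusted p = 0.000797), had no called difference between facial or ventral SKPs and MSCs. Runx3, a transcription factor of the Runt family, was higher in dorsal SKPs by 1.79 (SE 0.20, adjusted p = 0.000122), with a dorsal minus facial difference at the edge of the threshold (1.01, adjusted p = 0.0494).

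Fbxo32, the muscle atrophy ubiquitin ligase atrogin-1, stood at 9.81, 9.69 and 8.98 on the dorsal arrays, at 7.30 through 7.84 to 8.22 on the facial and ventral arrays and at 5.80, 5.82, 5.40 and 5.40 on the MSC arrays. Its difference from MSCs was 3.89 (SE 0.23, adjusted p = 9.07e-07), against 2.06 for facial and 2.34 for ventral SKPs, and dorsal SKPs exceeded those by 1.83 (adjusted p = 0.0037) and 1.54 (adjusted p = 0.0044). Syngr1, a synaptic vesicle protein gene, stood at 9.62, 10.28 and 10.58 on the dorsal arrays against 5.26, 5.74, 5.07 and 5.32 on the MSC arrays (4.81, SE 0.25, adjusted p = 4.03e-07). Facial (3.43) and ventral SKPs (3.60) shared most of that difference. The other members were the membrane trafficking gene Syt13 (1.94), Ccdc134 (1.76), the calpain Capn12 (1.57), the kinase-like gene Nrbp2 (1.03), the monocarboxylate transporter Slc16a13 (1.02), Lrrc49 (0.97), the interleukin 1 receptor family gene Il1rapl1 (0.69, below background in all groups and not resolved in size) and prothymosin alpha, Ptma (0.54). Of the 19 genes, 11 were called in neither facial nor ventral SKPs against MSCs, and 6 were called upward in both.

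The lowest genes were led by Mab21l1, a developmental gene of eye and craniofacial tissue that is homologous to a cell fate gene of the nematode. It stood at 4.09, 4.10 and 3.93 on the dorsal, 9.15, 9.51 and 8.78 on the facial, 9.44, 9.04 and 9.55 on the ventral and 5.82, 7.08, 7.76 and 6.65 on the MSC arrays. Dorsal arrays lay lowest and MSC arrays above them without overlap. Facial and ventral arrays overlapped with each other and lay above all MSC arrays. Dorsal SKPs were 2.79 below MSCs (difference -2.79, SE 0.35, adjusted p = 0.000282), while facial (2.32, SE 0.35, adjusted p = 0.000819) and ventral SKPs (2.51, SE 0.35, adjusted p = 0.000344) were above them. Against the other regions the dorsal difference was -5.11 (adjusted p = 2.28e-05) and -5.30 (adjusted p = 1.93e-05). Mab21l1 was the single gene of 14506 (0.00689%) called in one direction in dorsal and in the opposite direction in both facial and ventral SKPs.

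Meox2, a homeobox gene of the somite and its muscle and dermal derivatives, stood at 3.85, 3.59 and 2.57 on the dorsal arrays, a mean below background, at 5.12 through 5.73 to 6.27 on the facial and ventral arrays and at 8.09, 7.92, 8.78 and 8.79 on the MSC arrays. All regions were below MSCs and dorsal SKPs furthest (dorsal -5.06, facial -2.64, ventral -2.76), with the dorsal difference not resolved in size. The regional tests gave -2.42 (adjusted p = 0.013) and -2.30 (adjusted p = 0.00847). Both Zic1 and Meox2 were on a list of 17 somite and dorsal dermis factors, and they moved in opposite directions. The list as a whole was not particular to dorsal SKPs. Facial SKPs had 5 members higher than MSCs and 1 lower, and ventral SKPs 5 and 2. Dorsal SKPs had 5 higher and 2 lower (4 lower without MSC array 1), with a median of 0.05, against 8.77% and 7.76% of all genes. Among those higher in dorsal SKPs were Prdm1 (3.51, SE 0.42), a transcriptional repressor of hair follicle and dermal papilla precursors, and the dermal regulator Twist2 (3.14, SE 0.33). Both were also above MSCs in facial (2.89 and 3.32) and ventral SKPs (2.46 and 2.62), with no regional call.

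Collagens of 2 kinds were lowest in dorsal SKPs. Col14a1, a collagen on the surface of fibrils in skin, stood at 8.13, 8.601 and 7.05 on the dorsal arrays, at 9.99 through 11.15 to 11.57 on the facial and ventral arrays and at 9.18, 9.01, 9.52 and 9.998 on the MSC arrays. It was below MSCs in dorsal SKPs (difference -1.499, SE 0.39, adjusted p = 0.02) and above MSCs in ventral SKPs (1.91, adjusted p = 0.00365). The dorsal call against MSCs was lost without dorsal array 3 (-1.06, adjusted p = 0.0724). Col11a1, a fibrillar collagen of cartilage, stood at 6.21, 5.63 and 5.23 on the dorsal arrays against 7.36 through 7.81 to 7.94 and 8.95, 8.59, 10.19 and 8.99, and here all regions were below MSCs (-3.49, -1.62 and -1.33). Without dorsal array 3 Col11a1 no longer met all 3 tests.

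Receptors and Wnt pathway genes made up much of the rest. Cmklr1, the receptor for chemerin, stood at 5.52, 5.38 and 4.20 on the dorsal arrays, at 6.99 through 8.11 to 8.47 on the facial and ventral and at 7.19, 7.50, 8.76 and 8.73 on the MSC arrays (-3.02, SE 0.47, adjusted p = 0.00115). Facial and ventral arrays overlapped with those of MSCs for this gene, and dorsal arrays lay below all. The Wnt receptor Fzd6 was below background on each dorsal array (3.18, 2.38 and 2.90) and stood at 5.37, 5.34, 5.65 and 5.19 on the MSC arrays (-2.57, SE 0.18, adjusted p = 3.69e-06, a size not resolved). Rspo1, a secreted enhancer of Wnt signalling, stood at 5.22, 5.17 and 4.90 on the dorsal arrays against 5.93 through 6.40 to 6.75 and 5.54, 6.01, 6.03 and 6.58 (-0.94, SE 0.21, adjusted p = 0.00969). Dorsal SKPs thus had the highest level of the ligand gene Wnt16 and the lowest of Fzd6 and Rspo1 among the 4 groups. The remaining lowest genes were the regulator of G protein signalling Rgs16 (-2.06), the lipid flippase Atp10a (-1.51), Frmd6 of the Hippo pathway (-1.20), the ciliary gene Dzip1 (-1.17), the orphan receptor Gpr63 (-0.99, adjusted p = 0.0143, lost without dorsal array 3 at 0.0533), Phtf2 (-0.91) and the synaptic scaffold Homer1 (-0.75). Of the 14, 7 were called in neither other region against MSCs and 5 were called downward in both.

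**Figure D3:**
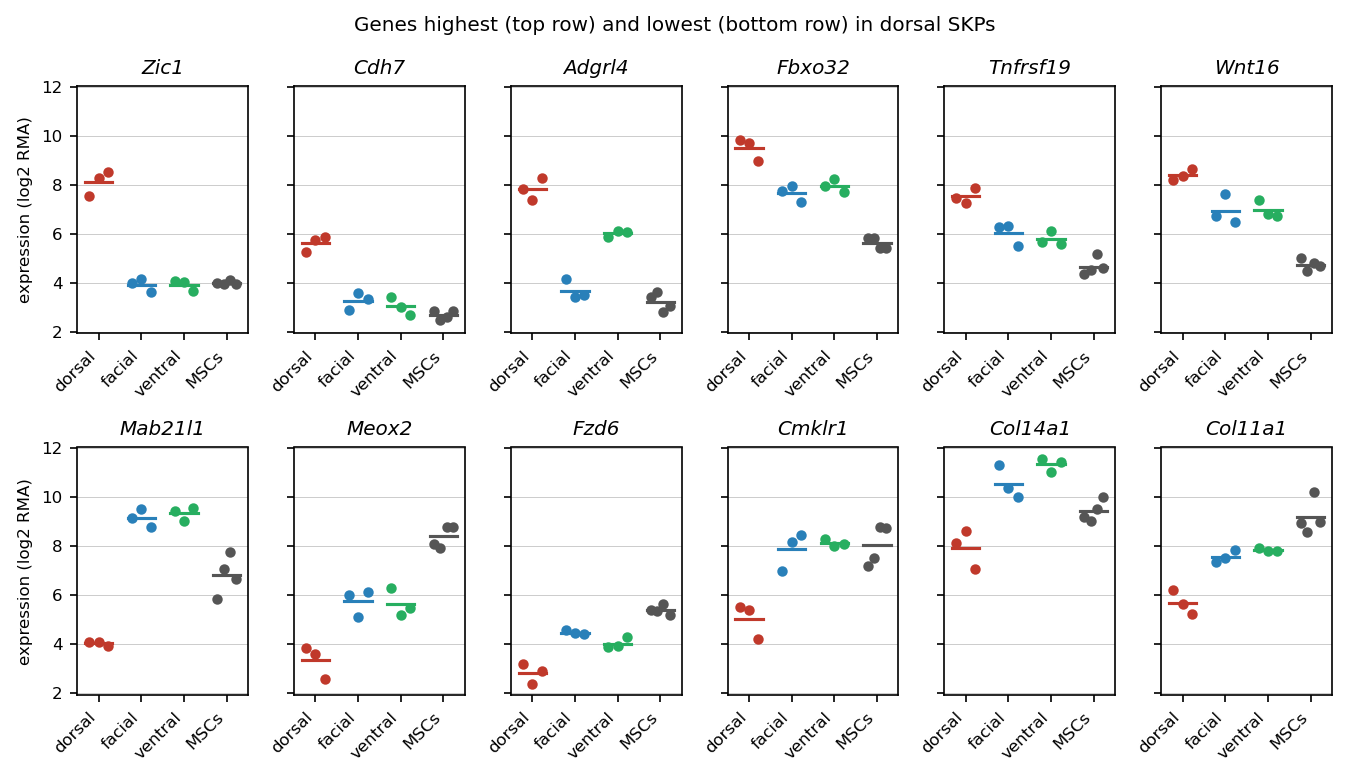
Log2 RMA level (y axis) on each array by group (x axis) for 6 genes highest (top row) and 6 lowest (bottom row) in dorsal SKPs; points are arrays and lines are group means. The 3 dorsal points lie outside the range of the other 10 in every panel, and for Mab21l1 the facial and ventral points (8.78 to 9.55) lie above the MSCs while the dorsal points (3.93 to 4.10) lie below them.

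A further rule took genes called above MSCs in both facial and ventral SKPs and not called in dorsal SKPs, with dorsal SKPs called below both regions. There were 13 such genes (0.0896%), 10 without dorsal array 3 with 8 in common, and 7 without ventral array 1. Cxcl14, a chemokine made in skin and dermal papilla, stood at 5.31, 5.45 and 5.40 on the dorsal, 8.08, 8.56 and 8.01 on the facial, 7.84, 7.98 and 8.10 on the ventral and 5.41, 5.24, 4.75 and 4.83 on the MSC arrays. Dorsal values overlapped with those of MSCs and the other 6 arrays lay well above. Facial (3.16, SE 0.18, adjusted p = 4.9e-07) and ventral SKPs (2.92, SE 0.18, adjusted p = 7.52e-07) were called and dorsal SKPs were not (0.33, SE 0.18, adjusted p = 0.245), and the regional differences were -2.83 (adjusted p = 1.09e-05) and -2.58 (adjusted p = 1.93e-05).

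Several of these 13 genes are known from neurons and glia. Gap43, a growth cone protein, stood at 5.04, 4.75 and 4.72 on the dorsal arrays, at 6.21 through 6.54 to 7.84 on the facial and ventral and at 4.84, 4.49, 4.92 and 4.66 on the MSC arrays. Map2, a dendritic microtubule protein, stood at 5.79, 4.88 and 5.16 against 7.48 through 7.67 to 8.41 and 3.55, 4.34, 5.88 and 3.60. Its dorsal difference from MSCs was positive and not called (0.935, SE 0.475, limma adjusted p = 0.224). Map2 met the rule in 12 of 23 alternative settings. The membrane glycoprotein Gpm6b stood at 6.30, 5.60 and 4.91 against 7.65 through 8.40 to 8.73 and 6.26, 7.14, 5.64 and 5.94. In each case the dorsal arrays lay below all 6 arrays of the other regions and within or near the MSC range. The netrin receptor Unc5a, the adaptor Shc3 and the adhesion receptor Adgrl3 also met the rule, with facial minus MSC differences of 1.14, 1.53 and 2.04 and dorsal ones of 0.20, -0.31 and -0.34. Apart from these, Schwann and glial markers as a list had 0 members higher (1 without dorsal array 3, and 1 at an unadjusted p under 0.05 by limma) and 2 of 18 lower in dorsal SKPs, and neuronal markers 2 higher and 1 lower of 18 (0 and 0 in a fit of the dorsal and MSC arrays alone).

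The largest regional differences under this rule were those of Itm2a and the tight junction gene Cldn10. Itm2a, a membrane protein gene of chondrogenic and muscle precursors, stood at 6.26, 4.72 and 2.64 on the dorsal arrays, 8.25 through 8.98 to 9.25 on the facial and ventral and 4.14, 2.92, 5.78 and 4.50 on the MSC arrays. Without dorsal array 3 it no longer met the rule. Cldn10 stood near background at 3.22, 3.74 and 3.12 on the dorsal arrays and at 3.60, 3.15, 3.40 and 3.51 on the MSC arrays, against 5.49 through 6.27 to 7.91, and the size of its regional difference is not resolved. The phospholipase Pla2g4a, the vesicle gene Sytl3, the GTPase regulator Arhgap26 and Naip6, a sensor of the innate immune system, completed the 13. Leukocyte marker means were 7.05, 5.197 and 4.37 on dorsal arrays 1 to 3, 6.31 to 9.90 on the facial and 5.37 to 5.65 on the ventral arrays, so dorsal array 1 lay above facial array 2 and all ventral arrays and the other dorsal arrays lay below all 6. With that mean as a covariate 3 genes met the rule, with Cxcl14 among them.

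In the opposite sense, 3 genes (0.0207%) were called below MSCs in facial and ventral SKPs and not in dorsal SKPs. Avpr1a alone met the rule without dorsal array 3, without facial array 1 or 2 and without ventral array 1. Without dorsal array 2 or without MSC array 3 the count was 5. Avpr1a, a vasopressin receptor, stood at 10.62, 10.40 and 10.74 on the dorsal, 9.20, 9.28 and 9.10 on the facial, 8.18, 8.83 and 8.38 on the ventral and 10.48, 10.61, 10.05 and 9.99 on the MSC arrays. Dorsal arrays overlapped with MSCs at the top of the range. Dorsal minus MSC was 0.30 (adjusted p = 0.316) against -1.09 for facial and -1.82 for ventral SKPs, and dorsal exceeded these by 1.39 (adjusted p = 0.00482) and 2.13 (adjusted p = 0.000131). The laminin chain Lama3 (dorsal -0.25, facial -1.21, ventral -1.25) and Ccdc124 (0.14, -0.37 and -0.62) were the others.

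**Figure D4:**
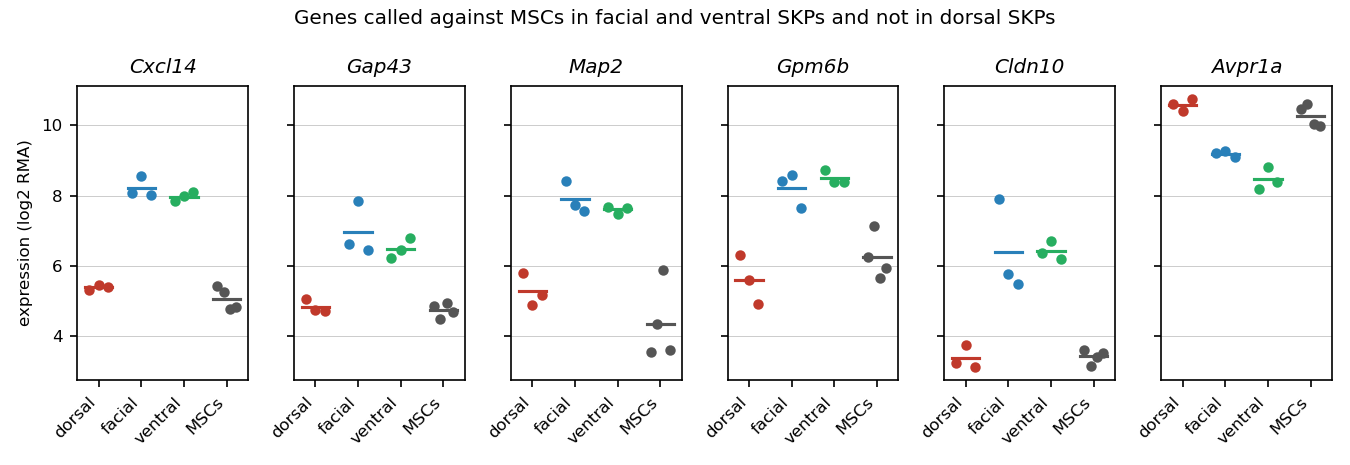
Log2 RMA level (y axis) on each array by group (x axis) for 6 genes. They were called above MSCs (Cxcl14 to Cldn10) or below them (Avpr1a) in facial and ventral SKPs and not in dorsal SKPs. Points are arrays and lines are group means. Dorsal points lie within or near the range of MSCs, as for Cxcl14 with 5.31 to 5.45 against 7.84 and more in the other regions.

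Across 23 alternative settings Zic1, Cdh7, Adgrl4, Mab21l1 and Cxcl14 met their rules in each, while Fzd6, Gap43, Adgrl3 and Avpr1a did so in 22. Promoters of the first group are shown because these genes carry the dorsal pattern, and 4 of the 5 were in the RefSeq table of rat assembly GRCr8. Each sequence spans 250 bases before to 50 after the annotated start of the gene, 5′ to 3′ on the plus strand, in lower case. Capitals mark matches to a motif on either strand. The TATA box was searched as TATAAA, the GC box with the letters GGGCGG, the promoter element named for its own letters as CCAAT, and a core of known Zic sites with the letters CAGCAGG.
Mab21l1, chr2:142093368-142093667: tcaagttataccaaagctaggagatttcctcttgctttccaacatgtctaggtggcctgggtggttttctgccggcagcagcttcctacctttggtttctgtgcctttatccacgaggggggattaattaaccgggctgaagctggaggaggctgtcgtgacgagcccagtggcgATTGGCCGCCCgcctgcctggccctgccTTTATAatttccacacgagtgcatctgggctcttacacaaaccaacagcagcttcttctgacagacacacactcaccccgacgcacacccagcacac
Cxcl14, chr17:8322900-8323199: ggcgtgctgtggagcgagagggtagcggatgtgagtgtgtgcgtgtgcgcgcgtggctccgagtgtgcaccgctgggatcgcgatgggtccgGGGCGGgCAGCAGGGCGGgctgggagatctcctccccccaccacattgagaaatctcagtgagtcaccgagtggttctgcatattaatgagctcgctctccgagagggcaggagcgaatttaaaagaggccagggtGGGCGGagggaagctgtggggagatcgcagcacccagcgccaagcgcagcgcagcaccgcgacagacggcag
Cdh7, chr13:27197332-27197631: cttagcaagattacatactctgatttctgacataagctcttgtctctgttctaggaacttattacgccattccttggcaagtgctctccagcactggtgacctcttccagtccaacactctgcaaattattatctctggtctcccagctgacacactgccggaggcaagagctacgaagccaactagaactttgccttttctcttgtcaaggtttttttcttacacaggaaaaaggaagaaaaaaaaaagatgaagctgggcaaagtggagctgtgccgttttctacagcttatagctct
Adgrl4, chr2:243014689-243014988: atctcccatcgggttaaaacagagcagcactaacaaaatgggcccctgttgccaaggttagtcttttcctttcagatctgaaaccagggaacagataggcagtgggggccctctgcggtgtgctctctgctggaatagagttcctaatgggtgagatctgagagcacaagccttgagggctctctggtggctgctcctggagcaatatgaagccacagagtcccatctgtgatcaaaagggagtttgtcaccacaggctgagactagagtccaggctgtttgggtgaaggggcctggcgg

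The 4 promoters differed in CpG content: 26 CpG in that of Cxcl14, 11 in Mab21l1, 4 in Cdh7 and 3 in Adgrl4, against a median of 16 over the 11970 promoters of tested genes. Mab21l1 had 1 TATA box, 1 CCAAT box and 1 GC box, the latter pair side by side, and Cxcl14 had 3 GC boxes, of which 1 overlaps the single Zic core. Cdh7 and Adgrl4 had none of these letters in the window. Of the 33 genes highest or lowest in dorsal SKPs, 25 had a promoter in the table: 5 held TATAAA, 7 GGGCGG, 11 CCAAT and 2 CAGCAGG. Among all 11970 promoters, 11.8% held TATAAA, 50.2% GGGCGG, 38.3% CCAAT and 10.3% CAGCAGG. A match is a description of the letters and not evidence of a site in use.

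The largest differences between dorsal SKPs and MSCs were, in contrast, mostly met in the other regions too. Secreted proteases headed the higher genes: the collagenase Mmp13 (8.35, SE 0.53, adjusted p = 1.85e-06) and the stromelysins Mmp10 (7.65) and Mmp3 (5.71), with the elastase Mmp12 at 4.96. Mmp13 stood at 12.01, 12.69 and 12.82 on the dorsal arrays and 5.92, 3.37, 3.49 and 3.86 on the MSC arrays. Of 21 matrix metalloproteinases and inhibitors, 9 were higher and 1 lower. Decorin (Dcn, 7.58), a proteoglycan of collagen fibrils, the stromal surface protein Lrrc15 (5.47), the ferroxidase ceruloplasmin (Cp, 5.37), the neuronal membrane gene Sez6l (5.33, and 6.08 without dorsal array 3), the matrix protein Efemp1 (5.29) and Dusp4 (5.28), a phosphatase of MAP kinases, were also among the 12 largest. None of these 10 genes passed a regional test. Mmp10 was below background in MSCs, so its size is not resolved.

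The other members of the top 12 did show, or approach, regional differences. Dio2, which activates thyroid hormone, stood at 9.43, 11.11 and 9.55 on the dorsal arrays and below background in MSCs (6.66, SE 0.43, adjusted p = 1.99e-06, a size not resolved), and it was higher than in ventral SKPs (2.17, adjusted p = 0.0184). Ptprz1, a receptor phosphatase of neural and glial precursors, stood at 8.89, 8.73 and 9.75 on the dorsal, 8.25, 6.97 and 7.40 on the facial, 6.33, 6.97 and 7.07 on the ventral and 3.46, 3.12, 2.88 and 2.62 on the MSC arrays. All 3 dorsal arrays were above every other array, and the MSC mean was below background. The difference of Ptprz1 from ventral SKPs was called (2.33, SE 0.36, adjusted p = 0.00406) and that from facial SKPs was not (1.59, SE 0.36, adjusted p = 0.0605), so it missed the dorsal rule. Ass1, the arginine-making argininosuccinate synthase, stood at 10.46, 11.57 and 7.74 on the dorsal, 6.73, 7.33 and 5.81 on the facial, 8.99, 8.92 and 8.34 on the ventral and 4.25, 3.51, 3.76 and 3.67 on the MSC arrays (6.13, SE 0.69, adjusted p = 0.000118, and 7.22 without dorsal array 3). Its value on dorsal array 3 lay below all ventral arrays, and neither regional test was passed (facial 3.30, adjusted p = 0.0569; ventral 1.17, adjusted p = 0.407).

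Among the 12 genes furthest below MSCs were Tagln (-7.23, SE 0.36, adjusted p = 3.68e-07) and Cnn1 (-5.08, SE 0.64, adjusted p = 0.000257), both actin-binding proteins of smooth muscle. The others, besides Meox2, included the LIM protein Fhl1 (-5.93), the kinase anchor Akap12 (-5.73), aggrecan (Acan, -5.58), Smoc1 (-5.52), the small proteoglycan Ogn (-5.11, and -4.39 without dorsal array 3), the growth factor Tgfb3 (-4.98) and the insulin receptor adaptor Grb14 (-4.94). Cyp1b1, an oxidase of retinoids and steroids, was lower by 6.17 on the log2 scale (difference -6.17, SE 0.48). Il1rl1, the receptor for interleukin 33, had a regional difference: 8.25, 7.08 and 3.72 on the dorsal, 10.03, 11.40 and 10.39 on the facial, 8.14, 7.84 and 8.05 on the ventral and 10.33, 11.08, 11.11 and 12.02 on the MSC arrays. It was below MSCs in dorsal SKPs (-4.78, SE 0.83, adjusted p = 0.00209) and below facial SKPs (-4.26, adjusted p = 0.042), which were not called against MSCs (-0.53, adjusted p = 0.725). Dorsal array 3 was the lowest for Il1rl1, and without it the difference from MSCs was -3.47 (adjusted p = 0.000649).

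Gene lists describe the same comparison by group, each set against the 8.77% of genes higher and 7.76% lower overall and an overall median of 0.01. Actin and serum response genes, which respond to cell tension and serum, were lower in 17 of 20 cases with 0 higher (median -1.66), and smooth muscle and pericyte markers in 11 of 17 with 0 higher (median -2.69). Acta2 stood at 7.90, 7.92 and 7.72 on the dorsal and 10.98, 11.39, 13.06 and 13.23 on the MSC arrays (-4.32, SE 0.45). Between dorsal and facial SKPs limma called 0 members of either list, and 1 member of each was lower at an unadjusted p under 0.05. Against ventral SKPs 2 actin and serum response genes were higher and 1 smooth muscle marker lower in dorsal SKPs. In that contrast 2.35% of all genes were higher and 3.76% lower. MSC arrays 3 and 4 had higher actin list means (11.32 and 11.52) than MSC arrays 1 and 2 (10.36 and 10.45). Cell cycle genes were lower in 27 of 33 cases with 0 higher (median -1.86, and -1.06 with 23 lower without dorsal array 3). Cyclin B1 (Ccnb1) stood at 7.44, 6.94 and 4.97 on the dorsal and 8.94, 9.41, 8.73 and 9.56 on the MSC arrays (-2.71, SE 0.47, adjusted p = 0.00208, and -1.97 without dorsal array 3). Against ventral SKPs 4 cell cycle genes were higher in dorsal SKPs, and against facial SKPs limma called 0 (2 higher at an unadjusted p under 0.05). In a fit of the 7 arrays of dorsal SKPs and MSCs alone, 9 cell cycle genes, 7 smooth muscle markers and 12 actin and serum response genes were called lower. Acta2 is on both of the latter lists.

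Lysosome genes stood out among the higher lists, with 18 of 29 higher and 0 lower (median 0.82), 14 higher without dorsal array 3 and 9 in the fit of 7 arrays. The cholesterol carrier Npc2 stood at 11.08, 11.24 and 11.30 on the dorsal and 9.09, 9.15, 9.55 and 9.24 on the MSC arrays (1.95, SE 0.14, adjusted p = 4.92e-06). The proteases Ctsd (1.49), Tpp1 (1.39) and Ctsh (1.38) were higher too. For Npc2 all dorsal arrays were above all MSC arrays. Between dorsal and facial SKPs limma called 0 lysosome genes (1 higher and 3 lower at an unadjusted p under 0.05), and 1 was lower than in ventral SKPs. Leukocyte markers had a median difference of 0.94, and 1.49 without dorsal array 3. Of the 28, 1 was called higher (Gpnmb, 2.64), and 3 without dorsal array 3. Their mean varied widely between dorsal arrays 1 to 3 (7.05, 5.197 and 4.37), and the part of leukocyte RNA in the lysosome differences was not tested.

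Axon guidance genes were higher in 12 of 39 cases and lower in 3 (median 0.29). The repellent ligand Sema3a stood at 11.35, 11.44 and 11.02 on the dorsal and 6.39, 6.15, 6.11 and 5.90 on the MSC arrays (5.13, SE 0.13, adjusted p = 1.59e-09). The slit receptor Robo2 (4.49, SE 0.36) and the semaphorins Sema6d (4.08, SE 0.23) and Sema5a (3.31, SE 0.61) followed. Set against the other regions, 5 axon guidance genes were lower than in facial and 8 lower than in ventral SKPs, with 0 higher in either. Of all genes, 0.793% were lower than in facial and 3.76% lower than in ventral SKPs. Sema3a was among those lower than in ventral SKPs (-0.72, adjusted p = 0.0132).

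Wnt ligands, receptors and targets were higher in 15 of 41 cases and lower in 8 (median 0.53), with 5 lower without dorsal array 1 and 10 higher and 4 lower in the fit of 7 arrays. The Wnt antagonist Sfrp2 stood at 6.25, 6.94 and 7.88 on the dorsal, 8.97, 10.13 and 9.63 on the facial, 5.17, 5.66 and 5.22 on the ventral and 3.79, 3.73, 3.58 and 3.76 on the MSC arrays. The regions did not overlap for Sfrp2: dorsal SKPs lay 3.31 above MSCs (SE 0.34, adjusted p = 5.5e-05), 2.56 below facial SKPs (difference -2.56, adjusted p = 0.00482) and 1.67 above ventral SKPs (adjusted p = 0.0196). Notum, which inactivates Wnt ligands, was higher (2.64, SE 0.45, and 3.275 without dorsal array 3) and the R-spondin receptor Lgr4 lower (-2.63, SE 0.23), with no regional call for either. Of 39 FGF and EGF ligands, receptors and targets, 11 were higher and 5 lower (3 lower without dorsal array 1 or dorsal array 3 and in the fit of 7 arrays). Fgfr1 was higher (2.43, SE 0.36), and the EGF receptor ligand Hbegf (-3.98, SE 0.32) and the receptor Egfr (-3.51, SE 0.73, adjusted p = 0.00623) were lower. Egfr stood at 4.87, 4.64 and 4.64 on the dorsal arrays, below every facial and ventral array (6.14 through 7.20 to 7.93), though neither regional test was passed (facial -2.13, adjusted p = 0.241; ventral -2.61, adjusted p = 0.0725). MSC arrays 1 and 2 (9.50 and 9.93) and 3 and 4 (6.63 and 6.86) differed widely for Egfr.

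BMP and TGF-beta ligands, receptors and targets were higher in 6 of 40 cases and lower in 9 (median -0.09), and in the fit of 7 arrays 4 each way. Bmp7 stood at 8.74, 8.69 and 7.28 on the dorsal, 10.33, 10.36 and 9.73 on the facial, 8.92, 9.12 and 8.76 on the ventral and 3.67, 4.08, 4.42 and 3.73 on the MSC arrays (4.26, SE 0.33, adjusted p = 6.87e-06), lower than in facial SKPs (-1.90, adjusted p = 0.0237). Bmp2 was higher than in MSCs (2.93, SE 0.55) and Tgfb3 lower. Of 16 IGF system genes 4 were higher and 2 lower (1 lower without any single dorsal array or MSC array 1 or 2, and 3 and 0 in the fit of 7 arrays). The IGF-binding proteins Igfbp3 (3.82), Igfbp5 (3.51, and 4.51 without dorsal array 3) and Igfbp4 (3.00) rose, and Igfbp4 was lower than in ventral SKPs (-1.26, adjusted p = 0.0278). Retinoid and thyroid hormone handling genes were higher in 8 of 23 cases and lower in 1. Besides Dio2 and Crabp1 these included Cyp26b1, which degrades retinoic acid (4.47, SE 0.69, and 5.62 without dorsal array 3), at 10.01, 9.78 and 6.46 on the dorsal arrays, so that dorsal array 3 was again the low one.

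Dermal papilla and dermal sheath markers were higher in 11 of 30 cases and lower in 4 (median 0.45), and SKP and neural crest factors in 6 of 21 and 2 of 21. The AP-2 factors Tfap2c (5.06, SE 0.25, adjusted p = 3.68e-07) and Tfap2a (3.04, SE 0.44, adjusted p = 0.000735), which act in ectoderm and neural crest, were higher, with no regional call. Enpp2, which makes lysophosphatidic acid and marks dermal papilla, was higher than in MSCs (4.30, against a mean below background) and lower than in ventral SKPs (-2.45, adjusted p = 0.0213). Scaling the arrays to a common median or repeating quantile normalisation gave 4 lower members of the SKP and neural crest list. Among melanocyte markers 3 of 9 were higher: the stem cell factor receptor Kit at 6.87, 8.52 and 7.10 against 3.44, 3.58, 5.54 and 3.03 on the MSC arrays (3.60, SE 0.61), Mitf (2.22, SE 0.36) and Mlana (2.52, SE 0.64, and 1.46 without dorsal array 3). Mlana stood at 6.38, 6.67 and 9.71 on the dorsal arrays, highest on array 3, while the pigment enzyme Tyr was below background in every group.

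Position along the body was read from Hox and related genes. Of 11 anterior Hox genes 2 were higher and 1 lower than in MSCs. Against facial SKPs 5 were higher, where 0.462% of all genes were, and 0 were called against ventral SKPs. Hoxa5 stood at 6.85, 6.76 and 7.06 on the dorsal, 3.47, 3.83 and 3.63 on the facial, 7.07, 7.40 and 7.07 on the ventral and 7.43, 7.80, 7.23 and 7.65 on the MSC arrays. Facial SKPs were low and the other groups high, with dorsal minus facial at 3.25 (adjusted p = 3.19e-06). Hoxa5 was the gene called lower in dorsal SKPs than in MSCs (-0.64, adjusted p = 0.0131), and its dorsal arrays lay below all MSC arrays. That call was lost without dorsal array 2. Hoxc4 (0.64, adjusted p = 0.0116) and Hoxb4 (0.55, adjusted p = 0.0152) were higher in dorsal SKPs than in MSCs. Of 3 central Hox genes 0 were called against MSCs by limma, and of 8 posterior ones 0 were higher and 1 lower. The lower one, Hoxa11, stood near background at 3.64, 4.21 and 3.48 on the dorsal and at 5.28, 5.83, 8.46 and 7.59 on the MSC arrays (-3.01, adjusted p = 0.00512). Facial and ventral SKPs were also called below MSCs for Hoxa11, with no regional call. Msx1, a homeobox gene of face and limb, was below MSCs in dorsal (-1.79, SE 0.25, adjusted p = 0.00064) and ventral SKPs (-1.05) and above them in facial SKPs (0.86, adjusted p = 0.0341), and the dorsal minus facial difference was -2.64 (adjusted p = 0.00049). Of 14 craniofacial patterning factors, 1 was higher and 3 lower than in MSCs. The higher one was Alx4 (2.75, SE 0.23).

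Matrix, stress and metabolic lists went both ways, had few calls or changed with dorsal array 3. Of 26 fibrillar and dermal matrix genes 3 were higher and 7 lower (median -0.67), 4 and 6 without dorsal array 3, or 1 and 3 in the fit of 7 arrays. Dcn was higher and Col14a1 lower, as above. The crosslinking enzyme Lox fell, with 8.80, 7.999 and 5.13 on the dorsal and 11.85, 11.59, 11.03 and 11.20 on the MSC arrays (-4.10, SE 0.64, adjusted p = 0.00119, and -3.015 without dorsal array 3), as did the microfibril gene Mfap5 (-4.74, SE 0.39). Of 28 unfolded protein and amino acid response genes 3 were higher and 8 lower, 12 lower without dorsal array 3, 4 without array 1, 5 without array 2 and 2 in the fit of 7 arrays. The higher count fell to 1 without any single MSC or ventral array or facial array 1. The median of this list was 0.18, and -0.34 without dorsal array 3. Facial SKPs had 1 member higher than MSCs and 10 lower, and ventral SKPs 1 and 8. Of all genes, 9.58% were lower in facial and 11.4% in ventral SKPs. The serine synthesis enzyme Psat1 was lower (-2.16, SE 0.29) and Ddit4, an inhibitor of mTOR signalling, higher (1.69, SE 0.26). Of 35 hypoxia and glycolysis genes 3 were higher and 3 lower, but 1 and 6 without dorsal array 3 and 0 and 2 in the fit of 7 arrays. The higher count was 5 without MSC array 1 and 1 without MSC array 4. The glucose transporter Slc2a3 stood at 5.68, 4.97 and 3.96 on the dorsal and 9.35, 8.97, 9.21 and 9.27 on the MSC arrays (-4.33, SE 0.32, adjusted p = 4.76e-06), and dorsal SKPs were also below ventral SKPs (-1.80, adjusted p = 0.0107). Respiratory chain genes (29) and cytosolic ribosomal protein genes (43) had 0 called members by limma (1 higher and 3 lower, and 0, at an unadjusted p under 0.05), and the latter had 5 called higher without dorsal array 2. Without dorsal array 3, 1 respiratory chain gene was called higher and 1 ribosomal protein gene lower.

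**Figure D5:**
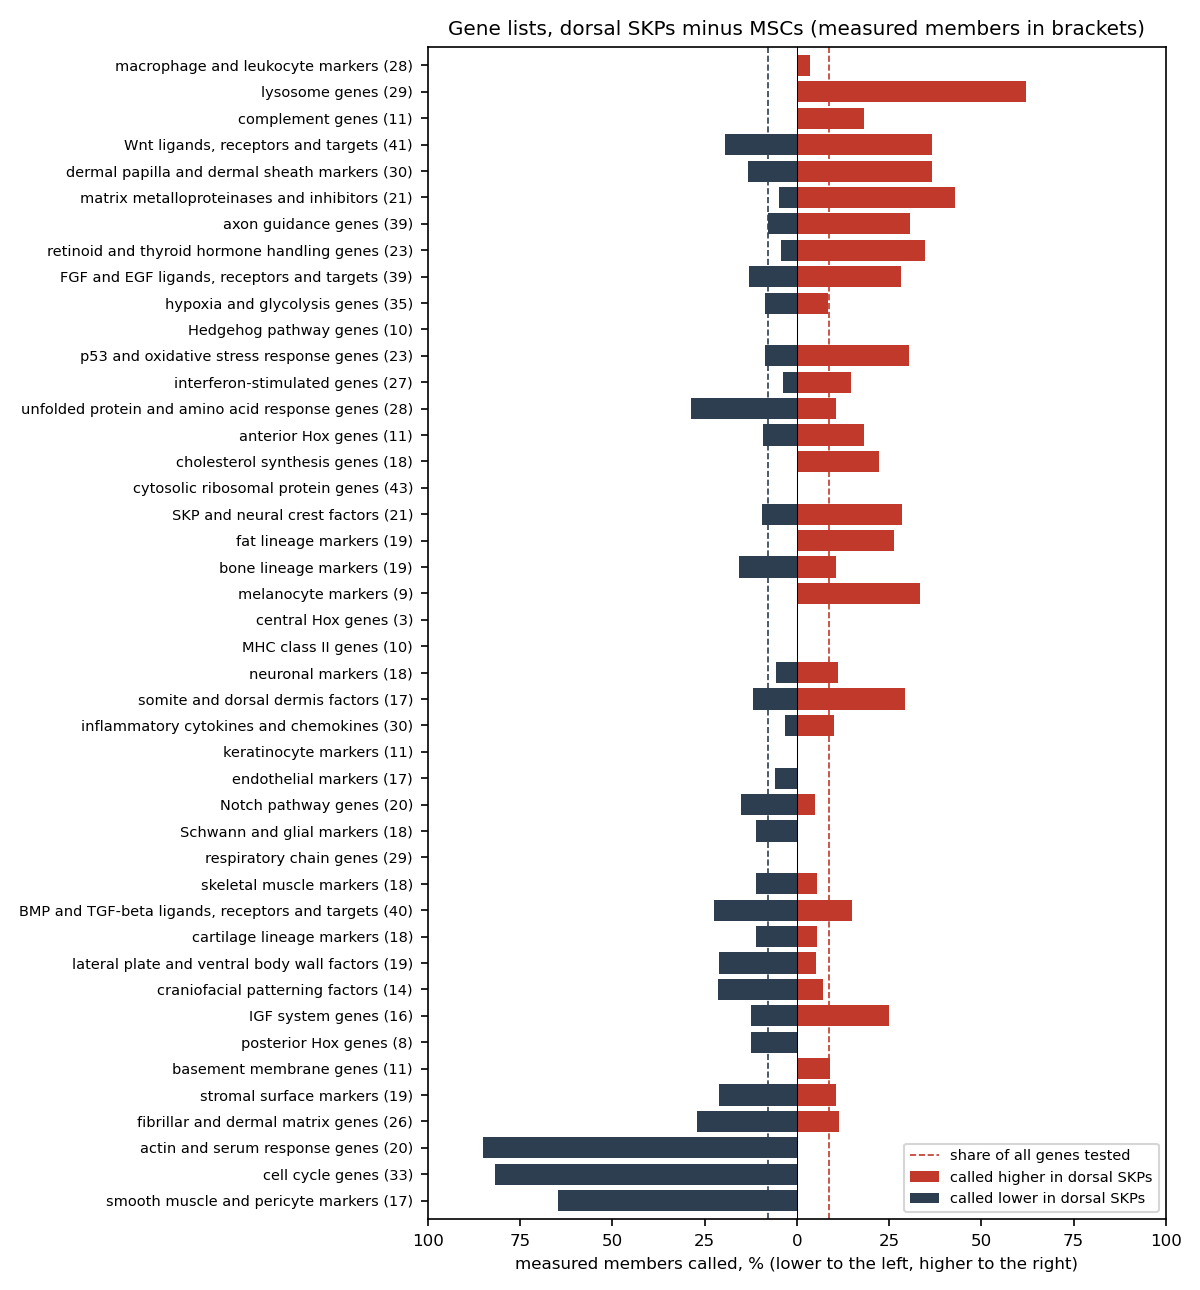
Share of the measured members of each of 44 gene lists that were called higher (right) or lower (left) in dorsal SKPs than in MSCs (x axis, percent), ordered by the median difference of the list; dashed lines give the share over all genes (8.77% and 7.76%). Lysosome genes have the longest bar to the right (18 of 29), and actin and serum response genes (17 of 20), cell cycle genes (27 of 33) and smooth muscle markers (11 of 17) the longest to the left.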

How the data were processed

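Expression was measured on 13 arrays: dorsal, facial and ventral SKPs (3 each) and MSCs (4). The deposited log2 values are those of the authors, made with RMA (background correction, quantile normalisation and probe summary) in Affymetrix Expression Console, per the submitters' processing notes. RMA brings the arrays to a common distribution, so a change in total RNA cannot be seen, and low values are compressed toward the background. Of 29215 probe sets, 15310 had exactly 1 gene symbol in the platform annotation, 323 had several and 13582 were unnamed here. Symbols were updated through Entrez identifiers (15279 probe sets) or accessions (6), and 25 were kept. For each of 14506 genes the probe set with the highest mean over 13 arrays was used (527 genes had several).

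All 13 arrays were fitted together with limma 3.58.1 in R 4.3.3, with 4 group means and 2-sided moderated tests, adjusted by Benjamini-Hochberg over all genes within each contrast at 0.05. The fit was tested on simulated data. Background was 3.49, the 90th percentile of the means of 1240 olfactory and vomeronasal genes. Separate isolates are the replicates, and their number limits the precision.

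The members and the 44 gene lists (901 genes measured) were chosen with earlier results of these data known. Genes were named by rule: the 12 largest called differences from MSCs each way without overlap of the arrays, the 12 most dorsal genes each way, the 6 leading genes of each rule on facial and ventral SKPs, up to 4 called members a list, and a fixed set of markers. The remaining genes that met the regional rules, Alcam, and genes named as not called, were added after their values were seen. The alternatives were leaving out each array, the arrays of the compared groups alone, the replicate block, filtering, scaling, array weights, a variance trend, another probe set, a leukocyte covariate and a minimum difference of 1.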

Additional observations from a re-analysis of the deposited data

Results flagged for a closer look

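Genes were picked out here where the dorsal effect against MSCs differed from that of the other regions, tested as the regional difference itself, and each value below is the smaller of dorsal minus facial and dorsal minus ventral on the log2 scale. Of the 19 genes highest in dorsal SKPs, the transcription factors were Zic1 (4.19), Runx3 (0.95) and Zic4 (0.58). Adhesion and signalling genes were Cdh7 (2.36), Adgrl4 (1.81), Mst1 (1.57), Tnfrsf19 (1.501), Wnt16 (1.42), Tacr1 (1.14) and Il1rapl1 (0.62). The others were Fbxo32 (1.54), Ccdc134 (1.26), Syngr1 (1.21), Nrbp2 (1.00), Syt13 (0.94), Capn12 (0.84), Lrrc49 (0.76), Slc16a13 (0.74) and Ptma (0.39).

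Among the 14 lowest genes the developmental factors and matrix genes were Mab21l1 (-5.11), Meox2 (-2.30), Col14a1 (-2.63) and Col11a1 (-1.87). Receptors and signalling genes were Cmklr1 (-2.84), Gpr63 (-1.38), Fzd6 (-1.20), Rspo1 (-1.02), Rgs16 (-0.67) and Frmd6 (-1.27), and the rest were Atp10a (-1.29), Homer1 (-0.68), Phtf2 (-0.67) and Dzip1 (-0.67). The 13 genes called above MSCs in facial and ventral SKPs and not in dorsal SKPs were Itm2a (-4.24), Cldn10 (-3.03), Gpm6b (-2.61), Cxcl14 (-2.58), Map2 (-2.33) and Adgrl3 (-2.13), with Shc3 (-1.85), Naip6 (-1.77), Gap43 (-1.65), Pla2g4a (-1.45), Arhgap26 (-1.42), Sytl3 (-1.16) and Unc5a (-0.94) at smaller differences. The 3 genes of the opposite kind were Avpr1a (1.39), Lama3 (0.96) and Ccdc124 (0.51).

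For 6 genes 1 MSC array lay far from the other 3. Atp10a stood at 7.32 and Ncam1 at 8.87 on MSC array 2, Enpp2 at 3.60, Pax3 at 5.07 and Zic4 at 3.73 on MSC array 3, and Naip6 at 4.31 on MSC array 1. Chance alone picks out about 1 in 20 groups in this way.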

How the results depend on the processing

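Across the alternatives no called dorsal minus MSC difference among the 208 genes examined changed sign, and 121 of the 163 called genes kept their call under each. Leaving out each array in turn gave 1005 to 1256 genes higher and 915 to 1171 lower in dorsal SKPs than in MSCs, 7 to 42 highest and 5 to 20 lowest in dorsal SKPs, 7 to 16 called high in facial and ventral SKPs and not in dorsal, and 1 to 5 called low in that way. Fits of the compared groups alone, which have fewer arrays, gave 682, 568, 4, 5, 4 and 1 in that order, and 40 of the 163 genes lost their call. A minimum log2 difference of 1, which removes smaller differences by construction, gave 557, 552, 11, 8, 12 and 1. With the leukocyte marker mean as a covariate the counts were 1166, 1079, 4, 2, 3 and 0 by limma (29 genes met the last rule at an unadjusted p under 0.05), and the cause was not tested. Zic1, Cdh7 and Adgrl4 were among the 4 and Mab21l1 and Fzd6 were the 2. The replicate block gave 933, 862, 10, 8, 11 and 1. The replicate numbers did not pair the arrays: over 18 pairs with the same number the correlation of deviations from the group means ran from -0.122 to 0.199, with 1 over 0.1. Filtering, scaling, array weights, the variance trend and another probe set kept all 6 counts within 1.5 times. Scaling moved the split between higher and lower, with 1117 and 1145 after subtracting the median of each array and 1173 and 1277 after repeated quantile normalisation. Signal over background limits the size of the differences of Adgrl4, Cdh7, Fzd6, Meox2, Il1rapl1, Zic4, Cldn10, Mmp10, Dio2, Ptprz1 and Enpp2, since at least 1 group compared lay below 3.49.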
